A study of Mus musculus with 12 samples.

Results

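Transcript counts of 36 genes that encode Polycomb proteins, Trithorax-group proteins and other enzymes acting on lysines of histone H3 were examined across 12 RNA libraries of newborn mouse cortex. The members were taken by name from a list of such genes, not by their measured values, but with earlier results of these data known. All 36 were found by Ensembl identifier among the 51912 genes counted in each library. A filter on low counts kept 34 of them among the 11076 genes tested. Phf19 and Cbx7 were too low to test and are given as levels only.

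Cortex was dissected on the day of birth (P0), and RNA depleted of ribosomal RNA was made into ClickSeq libraries, in which sequencing adapters are attached to cDNA by click chemistry. The study deleted H3f3a and H3f3b, the genes for the histone variant H3.3, in the mouse cortex. There were 3 groups of 4 libraries. The first group was labelled control, and the labels used here do not say whether the controls carried floxed alleles or a Cre transgene. The second group, dKO-N, carried conditional deletions of both H3f3a and H3f3b driven by Neurod6-Cre, which acts in newly formed excitatory neurons. The third group, dKO-E, carried the same deletions driven by Emx1-Cre, which acts earlier, in the progenitors of the cortical excitatory lineage. Interneurons, microglia and vessel cells lie outside both Cre lineages, so every knockout library also held RNA of cells in which the genes were intact. Nothing in the labels states that each library is a different animal, and the p-values therefore describe the spread among these libraries alone, part of which may be technical. In whole tissue, fewer cells of a type and less RNA per cell cannot be told apart.

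Polycomb repressive complex 2 (PRC2) methylates lysine 27 of histone H3 through Ezh1 or Ezh2, and Polycomb repressive complex 1 (PRC1) binds that mark or ubiquitinates histone H2A, and both keep developmental genes silent. Trithorax-group enzymes of the KMT2 and SETD1 families methylate lysine 4 of histone H3 at promoters and enhancers, the Kdm6 and Kdm5 enzymes remove these marks, and Ep300 and Crebbp acetylate lysine 27 instead. In the developing cortex Ezh2 is known for its role in dividing progenitors, whereas Ezh1 is the form that persists in differentiated neurons.

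Few members passed the test. With edgeR's quasi-likelihood test and a Benjamini-Hochberg adjusted p under 0.05 over all genes tested, 1 of 34 members (2.94%) passed in dKO-N against control, where 11.3% of all genes did, and 2 of 34 (5.88%) passed in dKO-E against control, where 20.2% of all genes did. Between the knockouts, 1 of 34 passed, against 6.84% of all genes. By direction, 5.04% of all genes were higher and 6.29% lower in dKO-N, 10.1% were higher and 10.1% lower in dKO-E, and 3.11% were higher and 3.73% lower in dKO-E relative to dKO-N. The calls were Kdm6a, which rose in dKO-N, Auts2, which rose in dKO-E, Jarid2, which fell in dKO-E, and Ezh2, which in dKO-E was below its level in dKO-N. No member differed by more than 2-fold in any comparison, whereas 3.85%, 4.67% and 2.15% of all genes did in dKO-N against control, dKO-E against control and dKO-E against dKO-N. The median log2 fold change of the members was 0.12, 0.05 and -0.05 in these comparisons, beside 0.01, 0.01 and -0.00 over all genes.

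**Figure D1:**
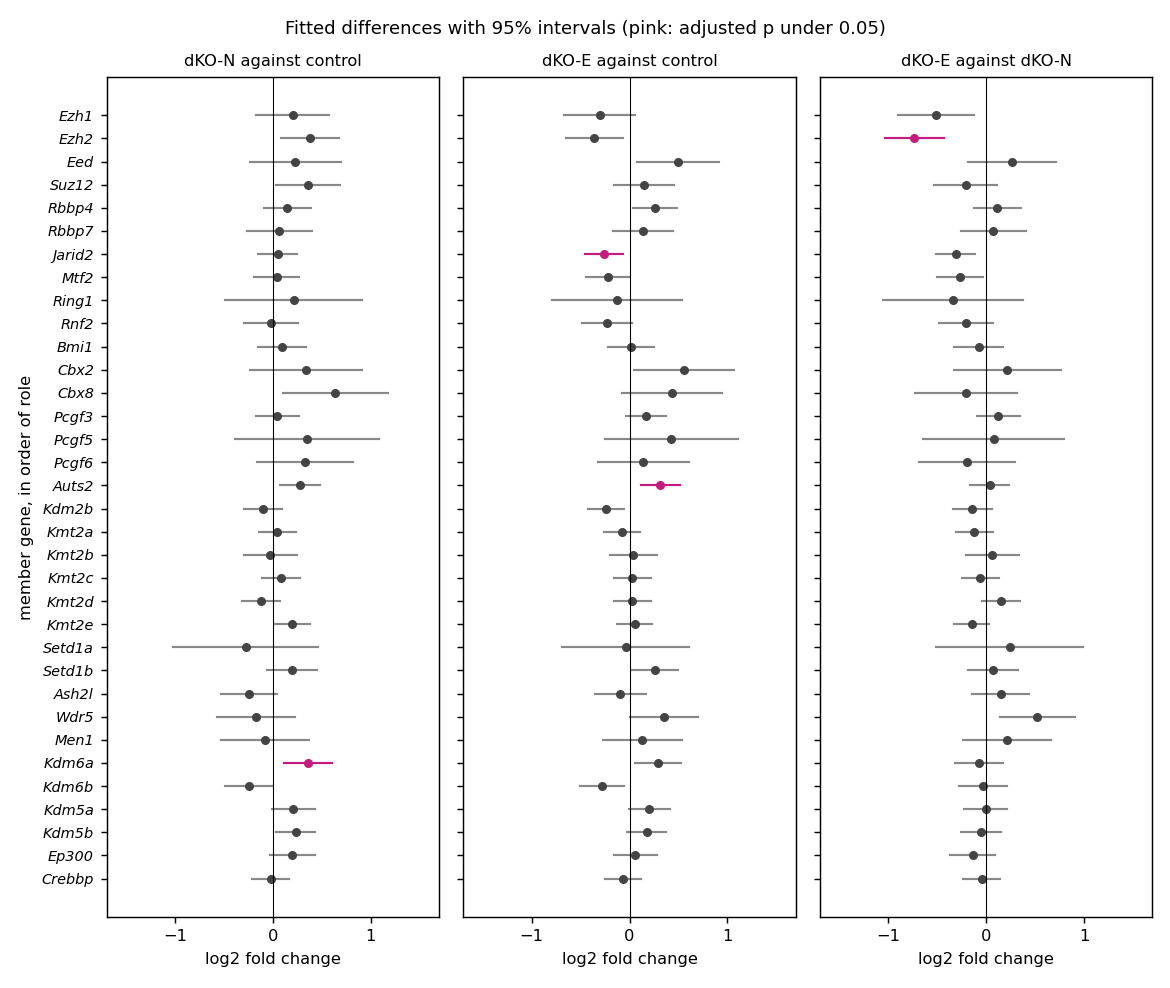
Log2 fold change (x axis) of each of the 34 members tested (y axis, in order of role) in the 3 comparisons, with points for the fitted value, lines for its 95% interval and pink for an adjusted p under 0.05. The 4 pink points are Kdm6a in dKO-N against control, Auts2 and Jarid2 in dKO-E against control, and Ezh2 in dKO-E against dKO-N.

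The 95% interval of the log2 fold change lay wholly between -1 and 1 for 31 members in dKO-N against control and for 32 in each of the other comparisons. It lay within -0.5 and 0.5 for 20, 20 and 21 members. Over all genes tested these shares were 78.0%, 79.3% and 79.7% for the wider bound and 34.8%, 34.2% and 34.6% for the narrower. The members were more abundant than the average gene (median log2 CPM of 6.19 against 4.92, where CPM are counts brought to a common library size with TMM factors), and precision rises with abundance. At an unadjusted p under 0.05, 8, 12 and 5 members passed. A missing call therefore limits most members to less than a 2-fold change, and does not show that they were equal.

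The libraries held 722080 to 3502017 counts in genes, so that 3 counts corresponded to 0.857 to 4.15 CPM. H3f3a, read as a check of the labels, had 17.7, 117, 16.4 and 121 CPM in control 1 to 4, and stood at 22.1 to 37.8 in dKO-N and at 22.9 to 30.0 in dKO-E, so the libraries labelled control 1 and 3 did not show the level of the libraries labelled control 2 and 4. Without that pair, H3f3a differed from control by -1.84 in dKO-N and -2.15 in dKO-E (edgeR adjusted p = 1.34e-09 and 9.71e-12), and with it neither difference passed (-0.96 and -1.28, adjusted p = 0.494 and 0.228). H3f3b stood at 76.7 to 143, 111 to 146 and 167 to 180 CPM in control, dKO-N and dKO-E, so its counts did not follow the deletion (0.69 in dKO-E, adjusted p = 0.000707). Fitted with all controls, the dKO-N value of H3f3b was 0.16 and did not pass (edgeR adjusted p = 0.583). Once control 1 and 3 were left out, that value was 0.57 and passed (adjusted p = 0.00749). The dKO-E value of H3f3b then grew to 1.11 (adjusted p = 2.035e-07). The labels do not say which exons were deleted. The libraries labelled dKO-E 3 and 4 held 2 and 4 counts of Xist where the other 10 held 893 to 4604, and they also held the Y-linked Uty and Kdm5d. Results of the members are given without either pair wherever that changes a call. Summed markers of excitatory neurons were lower in the knockouts, at 4647 to 5455 CPM in control, 3110 to 3772 in dKO-N and 2344 to 3053 in dKO-E over 12 genes. Neurod6, whose Cre drove dKO-N, was among the 12. Fitted singly, 5 of the 12 lay above 0 in dKO-N and 3 in dKO-E. In dKO-N 1 was called higher and 5 lower, and in dKO-E 1 higher and 6 lower. Those calls are 50% and 58.3% of the markers, beside 11.3% and 20.2% of all genes. Summed interneuron markers overlapped at 2182 to 2864, 2313 to 2764 and 2103 to 2548 CPM. Of 10 tested singly, 1 was called higher and 1 lower in each knockout against control. These are 20% of the markers, beside the same 11.3% and 20.2% of all genes. Their differences ran from -1.89 to 0.57 in dKO-N and from -2.23 to 0.60 in dKO-E. Summed microglial markers were higher in every knockout library than in every control (9.89 to 16.5, 17.7 to 27.2 and 19.1 to 26.1 CPM), and summed markers of the oligodendrocyte lineage were lower (102 to 122, 67.3 to 99.3 and 77.8 to 90.1). The microglial sum rested on 13 to 74 counts per library over 8 genes, of which 2 were tested. Neither passed in dKO-N, and in dKO-E 1 passed as higher while the other lay below 0 (-0.06). Among all genes tested, 13% in dKO-N and 25.5% in dKO-E had CPM ranges apart from control. Summed markers of endothelium and mural cells stood at 105 to 116, 76.2 to 98.8 and 77.0 to 108 CPM, and those of astrocytes at 197 to 236, 189 to 269 and 236 to 319. The part of cell composition in the members' levels was not tested.

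Among the catalytic subunits of PRC2, Ezh2 was the more abundant. Per kilobase of exon, the control level was 20.7 ± 1.10 CPM for Ezh2 and 3.23 ± 0.57 for Ezh1 (SD, n = 4). The ratio of the pair within a library, on the same scale, was 6.61 ± 1.72 for control libraries, 6.91 ± 2.24 for dKO-N and 6.22 ± 0.41 for dKO-E, with ranges of 5.26 to 9.13, 5.04 to 10.1 and 5.66 to 6.64. These ranges overlapped in full.

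Ezh2 (chromosome 6, 47530139 to 47595341, minus strand, mm10) was measured at 137, 133, 149 and 133 CPM in control 1 to 4, at 165, 131, 143 and 248 in dKO-N and at 101, 120, 103 and 105 in dKO-E. All 4 dKO-E libraries lay below every control and every dKO-N library, and dKO-N 4 lay far above the rest of its group. From dKO-N to dKO-E the log2 fold change of Ezh2 was -0.74 (SE 0.146, 95% interval -1.04 to -0.43, edgeR quasi-likelihood adjusted p = 0.00381). Against control, the difference was 0.38 (interval 0.08 to 0.67, adjusted p = 0.1) in dKO-N and -0.36 (interval -0.65 to -0.07, adjusted p = 0.078) in dKO-E, and neither passed. The difference in dKO-N was 0.07 (adjusted p = 0.79) without dKO-N 4, and without dKO-N 2 it was 0.50 and passed (adjusted p = 0.00796). The difference in dKO-E passed in 2 of 17 alternatives. These were the fit of control and dKO-E alone (-0.36, edgeR adjusted p = 0.00133) and the fit with no filter on low counts (-0.37, adjusted p = 0.01855). In the 8 fits that left out 1 library it did not pass (adjusted p 0.07 to 0.171). The difference between the knockouts passed in all 8 fits that left out 1 library, with values of -0.86 to -0.43 and adjusted p of 0.000112 to 0.0209. Its smallest size was -0.43, without dKO-N 4. Without dKO-E 3 and 4 it was -0.68 and no longer passed (adjusted p = 0.082). Ezh2's 2 overlapping annotated genes held no counts.

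Markers of dividing cells and progenitors were read beside these values. Over 14 cell cycle markers the sum was 115 to 163 CPM in control, 110 to 217 in dKO-N and 138 to 169 in dKO-E, and the highest value was that of dKO-N 4. All 14 held counts, 8 were tested, and none passed in any of the 3 comparisons. The sum of 12 progenitor markers was 307 to 354 CPM in control, 441 to 502 in dKO-N and 385 to 451 in dKO-E, with Sox2, which overlaps another annotated gene, at 0 counts in every library. Of 8 progenitor markers tested, 4 passed as higher in dKO-N and 2 in dKO-E. Those calls are 50% and 25% of the markers tested, beside 11.3% and 20.2% of all genes, so the share in dKO-E was near that of all genes. By CPM range, the dKO-E libraries lay below control in Ezh2 and above control in the summed progenitor markers. Among all genes tested, 25.5% had CPM ranges apart between dKO-E and control. The part of these cells in the Ezh2 levels was not tested.

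**Figure D2:**
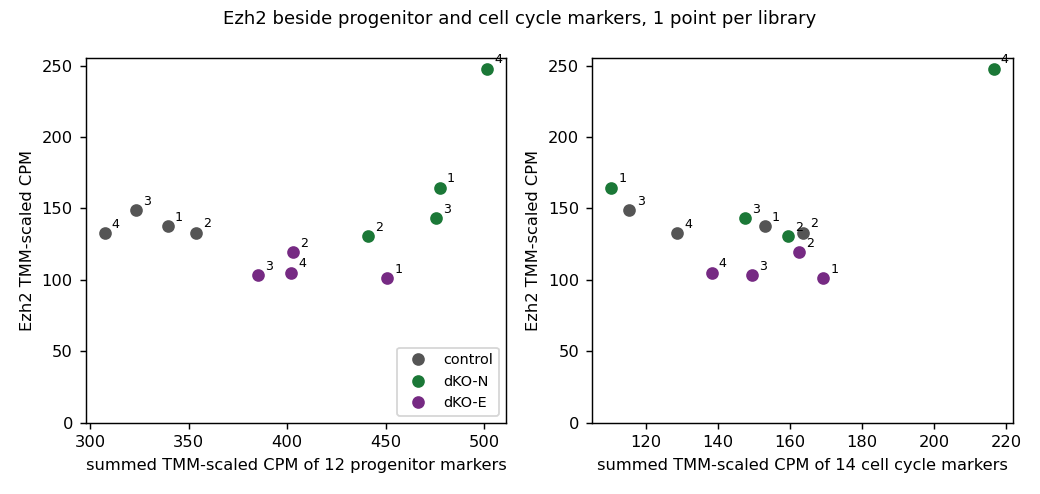
Ezh2 level (y axis, TMM-scaled CPM) against the summed level of 12 progenitor markers (left) and of 14 cell cycle markers (right), 1 point per library, numbered by replicate and coloured by group. The library dKO-N 4 is highest in Ezh2 at 248 CPM and in cell cycle markers at 217 CPM, and the dKO-E libraries lie at 101 to 120 CPM of Ezh2 with progenitor sums above those of control.

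Ezh1 (chromosome 11, 101191115 to 101226463, minus strand) was measured at 25.1, 28.2, 18.1 and 24.8 CPM in control, 27.2, 25.2, 31.7 and 27.3 in dKO-N and 17.0, 21.1, 18.4 and 20.7 in dKO-E. The dKO-E libraries lay below every dKO-N library, while control overlapped both. The difference between dKO-E and dKO-N was -0.51 (SE 0.191, interval -0.90 to -0.12, adjusted p = 0.101) and did not pass. Against control, Ezh1 differed by 0.20 in dKO-N and by -0.31 in dKO-E, with adjusted p of 0.577 and 0.244. Both catalytic subunits thus had their lowest mean in dKO-E.

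The proteins that hold PRC2 together did not share that order. Suz12, the scaffold of the complex, stood at 46.6, 45.3, 48.4 and 36.7 CPM in control, 58.5, 42.0, 44.1 and 70.9 in dKO-N and 35.9, 54.3, 52.0 and 52.6 in dKO-E, with overlapping ranges. Its differences were 0.36 (adjusted p = 0.163), 0.15 (0.54) and -0.21 (0.472) in dKO-N against control, dKO-E against control and dKO-E against dKO-N. As with Ezh2, its highest value was in dKO-N 4. Eed, which binds the methylated lysine and stimulates the enzyme, had means of 18.3 ± 4.52, 21.8 ± 6.24 and 26.1 ± 5.70 CPM in control, dKO-N and dKO-E, and its difference of 0.50 in dKO-E had an adjusted p of 0.0857. An overlapping annotated gene held 506 counts over the 12 libraries, beside 498 for Eed itself, and reads of the pair may have been split or dropped. The histone-binding subunits Rbbp4 and Rbbp7 differed from control by 0.15 and 0.06 in dKO-N and by 0.26 and 0.14 in dKO-E. In dKO-E, Rbbp4 lay above every control library (81.0 to 92.8 against 65.5 to 77.3 CPM), with an adjusted p of 0.0924.

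**Figure D3:**
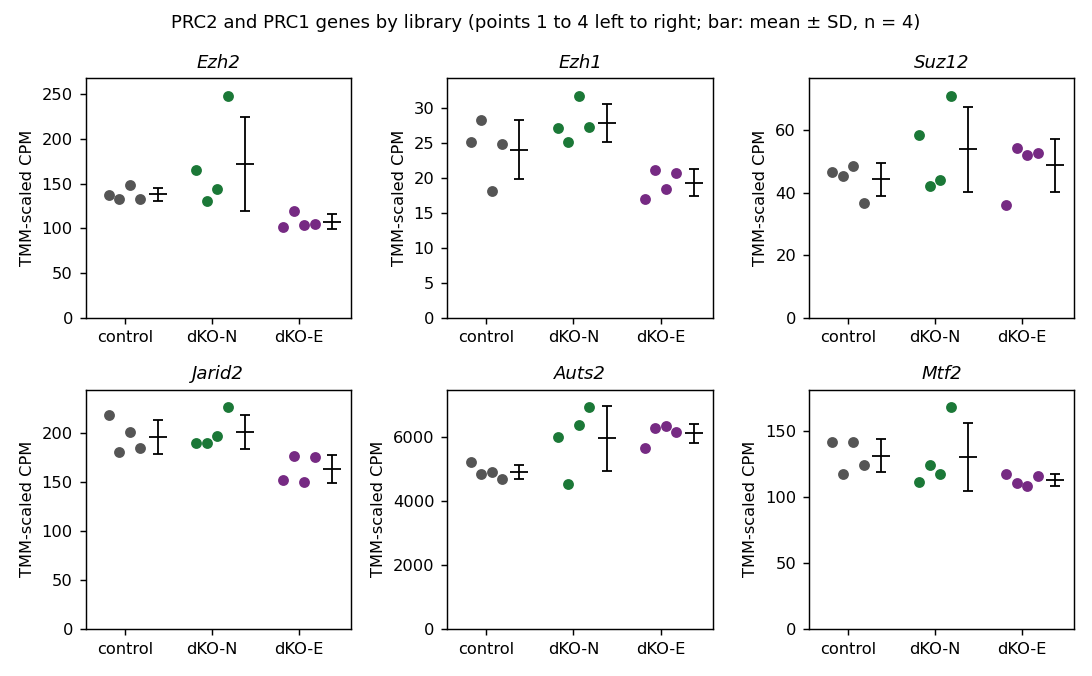
TMM-scaled CPM (y axis) of Ezh2, Ezh1, Suz12, Jarid2, Auts2 and Mtf2 in each library (points, replicates 1 to 4 from left to right within control, dKO-N and dKO-E), with the group mean and SD as a bar (n = 4). Ezh2 in dKO-E lies between 101 and 120 CPM, under all other libraries, and dKO-N 4 is the highest library for 5 of the 6 genes.

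Promoter windows from RefSeq (GRCm38.p6, 250 bases before to 50 bases after a transcript start) matched 28 of the 36 members by symbol, with 37 windows in all. Taking for each gene its window with the most CpG dinucleotides, the members held a median of 30 (16 to 56) where the median over 27025 genes was 8, with 67.3% G and C against 53.3%. The stretches of the PRC2 genes below are shown because the letters TTTCCCGC or TTTGGCGC, forms of the motif bound by the cell cycle factors of the E2F family, were found on either strand in windows of 3 members, Ezh2, Suz12 and Phf19. That is 10.7% of the members with a window, beside 1.8% (486) of all genes. Each form holds a CpG, and the windows of the members were richer in CpG than those of all genes. These shares are therefore not of like windows, and no excess of the motif is drawn from them. In Ezh2 the letters began at base 4 after the start and in Suz12 at base 219 before it, and Ezh1 held neither form. Each stretch runs from 230 bases before the start through its first 20 bases, 5′ to 3′ on the strand of the gene, with the motif in capitals.
Ezh2, chr6:47595011-47595260, minus strand: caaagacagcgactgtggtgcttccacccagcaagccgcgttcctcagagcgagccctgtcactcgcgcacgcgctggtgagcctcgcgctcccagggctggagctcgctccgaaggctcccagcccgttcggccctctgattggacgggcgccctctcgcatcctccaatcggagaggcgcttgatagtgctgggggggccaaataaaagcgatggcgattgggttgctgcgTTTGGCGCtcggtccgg
Suz12, chr11:79992876-79993125, plus strand: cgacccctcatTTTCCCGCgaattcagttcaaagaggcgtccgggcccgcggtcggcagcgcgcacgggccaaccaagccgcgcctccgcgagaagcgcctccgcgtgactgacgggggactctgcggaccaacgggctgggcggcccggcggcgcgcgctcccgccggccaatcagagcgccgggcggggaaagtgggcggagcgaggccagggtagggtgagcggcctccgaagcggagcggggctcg
Ezh1, chr11:101226444-101226693, minus strand: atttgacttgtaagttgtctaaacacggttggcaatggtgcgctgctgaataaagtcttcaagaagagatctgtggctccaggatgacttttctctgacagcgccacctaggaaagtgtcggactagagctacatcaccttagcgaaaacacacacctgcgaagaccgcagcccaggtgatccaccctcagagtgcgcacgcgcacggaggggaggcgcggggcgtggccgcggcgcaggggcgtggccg
A match of letters is a description of the sequence and not of factor binding, which was not measured here.

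Accessory subunits direct PRC2 to chromatin. Jarid2 (chromosome 13), which recruits the complex and is itself methylated by it, was measured at 219, 181, 201 and 185 CPM in control, 190, 190, 197 and 226 in dKO-N and 152, 177, 150 and 176 in dKO-E. The dKO-E libraries lay below all others, by a narrow margin at 177 against 181. Jarid2 fell in dKO-E by 0.26 on the log2 scale (SE 0.0953, interval -0.46 to -0.07, edgeR adjusted p = 0.0455), and its difference between dKO-E and dKO-N was -0.31 (adjusted p = 0.0501). In dKO-N it was 0.05 (adjusted p = 0.838). The call in dKO-E was lost on leaving out control 1, control 3, dKO-E 1, dKO-E 3 or dKO-E 4 (adjusted p 0.0419 to 0.185 over the 8 fits), without control 1 and 3 together (-0.16, adjusted p = 0.477), without dKO-E 3 and 4 (adjusted p = 0.226) and in DESeq2 (-0.28, adjusted p = 0.0685). Mtf2, which binds unmethylated CpG-rich DNA, had 131 ± 12.5, 130 ± 25.5 and 113 ± 4.28 CPM, with a difference of -0.23 in dKO-E (adjusted p = 0.15) and dKO-N 4 again highest at 168. Phf19, its relative, was near the detection limit, at 1.03 ± 0.243 CPM in control libraries and 1.25 ± 1.12 and 0.884 ± 0.866 in those of dKO-N and dKO-E.

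In PRC1, the ubiquitin ligase subunits Ring1 and Rnf2 and the Bmi1 subunit of canonical complexes showed no call. Their control levels were 6.28 ± 2.42, 58.1 ± 4.33 and 73.7 ± 4.78 CPM. Bmi1 differed from control by 0.09 in dKO-N and 0.01 in dKO-E, with a 95% interval of -0.22 to 0.25 for the latter. Rnf2 had 49.6 ± 2.39 CPM in dKO-E, below every control library, with a difference of -0.23 (adjusted p = 0.216). The chromodomain subunits, which read the methylated lysine, were scarce: Cbx2 had 8.51 ± 1.49 and Cbx8 8.63 ± 1.68 CPM in control, and Cbx7 3.3 ± 1.26. Cbx8 had the largest positive difference among the members, 0.64 in dKO-N (interval 0.10 to 1.18, adjusted p = 0.129), where all 4 libraries (11.0 to 15.0 CPM) lay above control (7.34 to 10.9). Cbx2 was also above control in all 4 dKO-N libraries (0.34, adjusted p = 0.539), and had 0.55 in dKO-E with an adjusted p of 0.123. Cbx7 held 3 to 17 counts per library and had 4.75 ± 2.35 CPM in dKO-N and 6.36 ± 2.58 in dKO-E. The Pcgf3, Pcgf5 and Pcgf6 subunits of variant PRC1 differed from control by 0.04 to 0.35 in dKO-N and by 0.14 to 0.43 in dKO-E, and none passed. Kdm2b, which brings variant PRC1 to CpG islands, had 178, 195, 189 and 182 CPM in control, 188, 168, 153 and 181 in dKO-N and 136, 162, 167 and 162 in dKO-E. The dKO-E libraries lay below every control library, and the difference was -0.24 (interval -0.43 to -0.05, adjusted p = 0.0622).

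Auts2, a subunit of a PRC1 form that is associated with gene activation in the brain, was by far the most abundant member. It was measured at 5224, 4846, 4912 and 4707 CPM in control, 5997, 4550, 6381 and 6934 in dKO-N and 5673, 6286, 6346 and 6175 in dKO-E. Every dKO-E library lay above every control library, and 3 of 4 dKO-N libraries did, with dKO-N 2 below all controls. Auts2 rose in dKO-E by 0.31 on the log2 scale (SE 0.0989, interval 0.11 to 0.51, edgeR adjusted p = 0.0209). Its difference in dKO-N was of like size, 0.28 (interval 0.08 to 0.48), and did not pass (adjusted p = 0.0647). Between dKO-E and dKO-N it was 0.04 (interval -0.16 to 0.24, adjusted p = 0.868). The call in dKO-E was lost on leaving out control 2, control 3, control 4, dKO-E 2, dKO-E 3 or dKO-E 4 (0.29 to 0.35, adjusted p 0.0169 to 0.0688 over the 8 fits), without control 1 and 3 (0.36, adjusted p = 0.0661) and without dKO-E 3 and 4 (0.28, adjusted p = 0.193). In dKO-N it passed without dKO-N 2 (0.39, adjusted p = 0.00129). Auts2 spans 1106 kb with 22.9 kb of exon, and whether introns were counted is not stated. It ranked first of the 36 members per kilobase of exon (215 CPM) but number 5 per kilobase of gene (4.45 CPM), where Bmi1 ranked first (7.67 CPM).

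Of the 7 lysine 4 methyltransferases of the KMT2 and SETD1 families (Kmt2e, a relative without clear enzyme activity, is counted with them), none passed in any comparison. Their fitted differences ran from -0.28 to 0.20 in dKO-N and from -0.08 to 0.26 in dKO-E. Kmt2a, Kmt2c and Kmt2d, whose products are the large catalytic subunits at promoters and enhancers, stood at 276 ± 8.93, 484 ± 18.8 and 206 ± 20.9 CPM in control, and in dKO-E they differed from control by -0.08, 0.03 and 0.03, with 95% intervals between -0.26 and 0.22. Kmt2e was 354 ± 23.1 CPM in control and 404 ± 36.9 in dKO-N (0.20, adjusted p = 0.169). Setd1b lay above every control library in dKO-E (66.9 to 79.7 against 54.4 to 65.6 CPM, 0.26, adjusted p = 0.109). Setd1a varied most within groups, at 10.9, 25.6, 9.07 and 18.1 CPM in control, so that its interval in dKO-N ran from -1.02 to 0.46.

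The subunits that these enzymes share also gave no call. Ash2l stood at 55.1, 79.3, 54.9 and 68.2 CPM in control. Wdr5, the adaptor that presents histone H3 to the enzymes, had 22.5 ± 1.40, 19.9 ± 4.84 and 28.5 ± 3.08 CPM, and its difference between dKO-E and dKO-N was 0.52 (interval 0.14 to 0.91, adjusted p = 0.0887). All 4 dKO-E libraries of Wdr5 lay above control (24.8 to 31.9 against 20.5 to 23.8 CPM, 0.35, adjusted p = 0.145). Men1, the menin subunit of the Kmt2a and Kmt2b complexes, differed from control by -0.08 in dKO-N and 0.13 in dKO-E.

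Among enzymes that remove methyl groups from lysine 27, Kdm6a (Utx, chromosome X, 18162575 to 18279936) gave the call in dKO-N. It was measured at 106, 99.6, 105 and 101 CPM in control, 118, 123, 132 and 147 in dKO-N and 151, 149, 105 and 101 in dKO-E. All dKO-N libraries lay above control, and in dKO-E the first 2 libraries lay above every control and dKO-N library while the other 2 lay within the control range. Kdm6a rose in dKO-N by 0.36 on the log2 scale (SE 0.121, interval 0.11 to 0.61, edgeR adjusted p = 0.0472). In dKO-E the difference was 0.29 (SE 0.116, adjusted p = 0.0731), and between the knockouts -0.07 (adjusted p = 0.779). The call in dKO-N was lost on leaving out any 1 control library, dKO-N 3 or dKO-N 4 (0.27 to 0.40, adjusted p 0.0356 to 0.227 over the 8 fits), without control 1 and 3 (0.40, adjusted p = 0.157) and in DESeq2 (0.35, adjusted p = 0.135), so it stood at the edge of the threshold.

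Kdm6a is X-linked and is known to escape X inactivation, and the dKO-E libraries split as their sex-linked transcripts did. The libraries at 105 and 101 CPM were dKO-E 3 and 4, which held 2 and 4 Xist counts and had 192 and 67.7 CPM of Uty, the Y-linked copy of Kdm6a, where no other library exceeded 1.31 CPM. Without them, Kdm6a was higher in dKO-E than in control by 0.54 (edgeR adjusted p = 0.00299) and differed from dKO-N by 0.18 (adjusted p = 0.557). Other X-linked genes that escape inactivation were chosen after the values were seen. Kdm5c had 74.6 ± 2.27 CPM in control, 73.7 ± 12.4 in dKO-N and 77.1, 79, 54.7 and 69.4 in dKO-E 1 to 4, and Eif2s3x had 69.4 ± 9.72, 63.8 ± 6.40 and 69.9, 69.3, 38.7 and 53.1. Ddx3x, the last of the 3 genes read, had 215 ± 9.15, 226 ± 29.8 and 227, 235, 195 and 225 CPM, with dKO-E 4 above every control library, so it did not split as Kdm6a did. In dKO-N the fitted differences of Kdm5c, Eif2s3x and Ddx3x from control were 0.00, -0.14 and 0.05, beside 0.36 for Kdm6a. The part of sex in the split of Kdm6a was not tested, and it cannot be told apart from other differences between those libraries. No annotated gene overlaps Kdm6a.

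**Figure D4:**
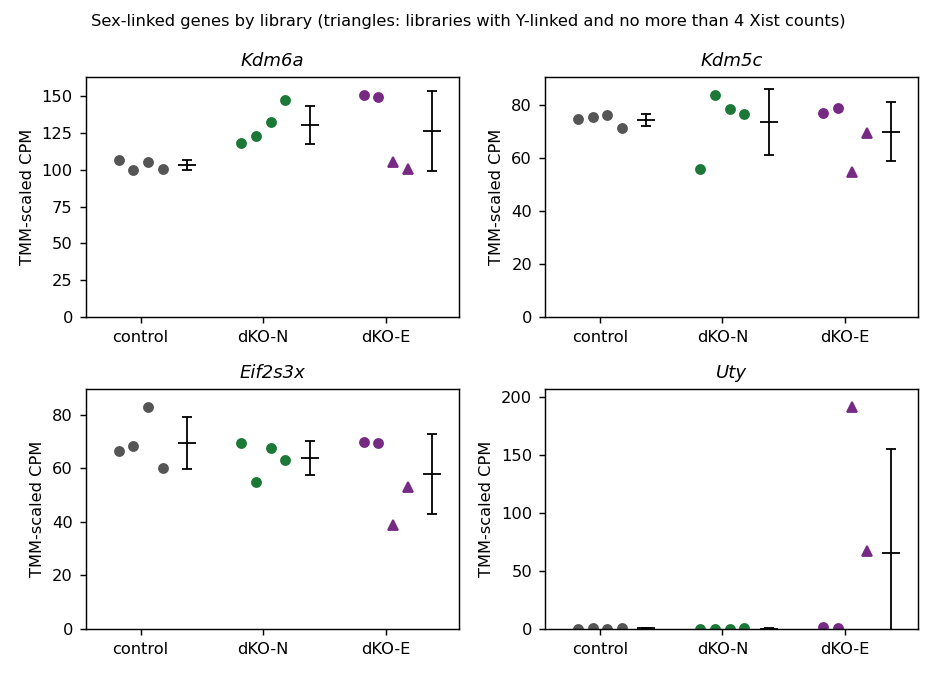
TMM-scaled CPM (y axis) of the X-linked Kdm6a, Kdm5c and Eif2s3x and the Y-linked Uty in each library of control, dKO-N and dKO-E, with group mean and SD (n = 4), and triangles for the libraries with at most 4 Xist counts. Kdm6a stands at 151 and 149 CPM in dKO-E 1 and 2 and at 105 and 101 in the triangles, and control lies at 99.6 to 106.

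Kdm6b, the other lysine 27 demethylase, lay on the other side of control. Its level was 77.6 ± 7.75 CPM in control against 65.2 ± 3.85 and 63.5 ± 4.12 in dKO-N and dKO-E. The dKO-E libraries lay below every control library (57.6 to 66.6 against 69.9 to 86.8 CPM), with a difference of -0.28 (adjusted p = 0.0699), and the difference in dKO-N was -0.25 (adjusted p = 0.204). The lysine 4 demethylases Kdm5a and Kdm5b had differences of 0.21 and 0.23 in dKO-N and of 0.20 and 0.17 in dKO-E, and neither passed. The acetyltransferases Ep300 and Crebbp differed from control by 0.20 and -0.02 in dKO-N and by 0.06 and -0.07 in dKO-E, with Crebbp at 347 ± 28.0, 339 ± 38.7 and 331 ± 13.1 CPM.

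CPM ranges that did not overlap between the groups were found for 3 of 34 members in dKO-N against control (13% of all genes), for 11 in dKO-E against control (25.5%) and for 3 in dKO-E against dKO-N (10.2%). The members nearest the threshold were close together on either side of it. In dKO-N, Kdm6a (0.0472) lay inside and Auts2 (0.0647) and Ezh2 (0.1) outside, by adjusted p. In dKO-E, Auts2 and Jarid2 lay inside, and Kdm2b (0.0622) and Kdm6b (0.0699) outside. Between the knockouts, Ezh2 lay inside, and Jarid2 (0.0501) and Wdr5 (0.0887) outside.

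Other genes of these pathways were read from the same fit. Of 33 other Polycomb subunits and partners tested, 2 rose and 2 fell in dKO-N, 8 rose and 2 fell in dKO-E, and between the knockouts 5 were higher and 2 lower in dKO-E. These are 12.1%, 30.3% and 21.2% of the list, beside 11.3%, 20.2% and 6.84% of all genes, and its median log2 fold change was 0.05, 0.08 and 0.08. Max, a DNA-binding partner in the PRC1.6 form, stood at 30.7, 29.3, 29.4 and 36.7 CPM in control, 35.4, 34.5, 30.3 and 27 in dKO-N and 37.2, 51.1, 55.9 and 54.3 in dKO-E. Max rose in dKO-E by 0.67 (SE 0.147, edgeR adjusted p = 0.0008) and was higher there than in dKO-N by 0.71 (adjusted p = 0.00643), a call lost without dKO-N 4 (adjusted p = 0.0768). Yaf2, a scaffold subunit of variant PRC1, had 75.3 ± 9.97, 67.5 ± 8.60 and 102 ± 8.81 CPM, with 0.56 between dKO-E and dKO-N (adjusted p = 0.0042), and passed in every fit that left out 1 library. Its paralog Rybp, chosen after its values were seen, had 56.4 ± 5.62, 57.1 ± 10.8 and 80.4 ± 5.95 CPM, with 0.51 in dKO-E (adjusted p = 0.00187) and 0.44 between the knockouts (adjusted p = 0.0327). Sfmbt2, of the PhoRC type, rose in both knockouts, with 10.5 ± 1.17, 19.5 ± 5.69 and 23.7 ± 5.52 CPM. Its log2 fold changes were 0.84 and 1.15, with adjusted p of 0.021 for dKO-N and 0.000182 for dKO-E. In dKO-N the call of Sfmbt2 was lost without control 2, control 4 or dKO-N 2 (0.63 to 1.02, adjusted p 0.0126 to 0.121 over the 8 fits).

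Further calls in that list were less stable. E2f6 and Scml2 rose in dKO-E (0.77 and 0.73), and these calls were lost in 7 and 3 of the 8 fits that left out 1 library. In dKO-N, Phf1 fell by 1.06 on the log2 scale from 8.45 ± 0.898 to 3.61 ± 1.86 CPM, a call lost in 7 of 8 such fits. That level was near the floor, since 3 counts are 0.857 to 4.15 CPM in the dKO-N libraries. Scml2 rose in dKO-N by 0.84, a call lost in 2 of 8 fits. Between dKO-E and dKO-N, L3mbtl1 was higher in dKO-E (1.53), a call lost in 6 of 8 fits.

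Of 22 other lysine 4 and lysine 27 modifiers tested, none passed in dKO-N, 1 rose and 1 fell in dKO-E, and between the knockouts 1 was lower in dKO-E (0%, 9.09% and 4.55%). The gene that fell in dKO-E was Rcor3, a corepressor of the Kdm1a complex, at 36.3 ± 7.42 CPM in control and 23.1 ± 2.76 in dKO-E (-0.66, adjusted p = 0.00515). Rcor3 no longer passed without control 1 and 3 (-0.46, adjusted p = 0.204). Of 29 modifiers of lysines 9, 36 and 79, 2 fell in dKO-N, 2 rose and 4 fell in dKO-E, and between the knockouts 3 were lower in dKO-E (6.90%, 20.7% and 10.3%). Mllt3, a reader that recruits the lysine 79 methyltransferase, stood at 836 ± 104, 924 ± 258 and 574 ± 25.5 CPM, and was lower in dKO-E than in control by -0.54 (adjusted p = 0.011) and than in dKO-N by -0.70 (adjusted p = 0.00747). Jmjd1c fell in dKO-E by 0.40 (adjusted p = 0.00211) and in dKO-N by 0.34 (adjusted p = 0.0163), and Setd5 fell in dKO-E by 0.41 (adjusted p = 0.00107). The call of Jmjd1c in dKO-N was lost without control 1, dKO-N 1 or dKO-N 2, and that of Mllt3 against control was lost without control 1 and 3 together (-0.48, adjusted p = 0.0738).

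Among 27 histone acetyltransferases and deacetylases tested, 2 rose and 2 fell in dKO-N, 2 rose and 1 fell in dKO-E, and between the knockouts 1 was higher and 1 lower in dKO-E (14.8%, 11.1% and 7.41%). Hdac9, a class IIa deacetylase, was measured at 342, 272, 273 and 298 CPM in control, 169, 171, 183 and 193 in dKO-N and 201, 144, 152 and 172 in dKO-E. Every knockout library lay below every control library, and Hdac9 fell by 0.72 in dKO-N (SE 0.104, edgeR adjusted p = 2.98e-06) and by 0.84 in dKO-E (SE 0.101, adjusted p = 4.08e-08). Brpf1, a subunit of acetyltransferase complexes, fell in dKO-N from 38.9 ± 3.74 to 25.6 ± 3.90 CPM and was at 43.5 ± 4.55 in dKO-E, with 0.77 between the knockouts (adjusted p = 0.0036). The fall of Brpf1 in dKO-N was -0.60 (adjusted p = 0.0118) and was lost without dKO-N 4 (adjusted p = 0.0712).

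Of 39 Trithorax-group remodelers of the BAF and CHD families, 3 rose and 1 fell in dKO-N, 5 rose and 5 fell in dKO-E, and between the knockouts 1 was higher and 1 lower in dKO-E. These shares, 10.3%, 25.6% and 5.13%, stood beside the same 11.3%, 20.2% and 6.84% of all genes. Chd3, a helicase of the NuRD complex, fell in dKO-N from 422 ± 30.6 to 301 ± 19.1 CPM (-0.49, adjusted p = 0.000106) and stood at 298 ± 12.1 CPM in dKO-E. Actl6a, the BAF subunit of progenitors that neurons replace, rose in dKO-E from 14.8 ± 2.79 to 26.2 ± 3.99 CPM (0.82, adjusted p = 0.00222) and was 15.0 ± 3.36 in dKO-N. Bcl11a, a transcription factor that joins the BAF complex, fell in dKO-E from 632 ± 38.5 to 343 ± 11.8 CPM (-0.88, adjusted p = 0.00179), while dKO-N held 434, 389, 536 and 794 CPM. Bcl11a is also a gene of cortical excitatory neurons, whose summed markers were lower in the same libraries, and their part in its level was not tested. The difference of Actl6a between the knockouts (0.95, adjusted p = 0.00787) was lost without dKO-N 4 (adjusted p = 0.124), and that of Bcl11a (-0.67, adjusted p = 0.0321) was lost in 5 of 8 fits.

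**Figure D5:**
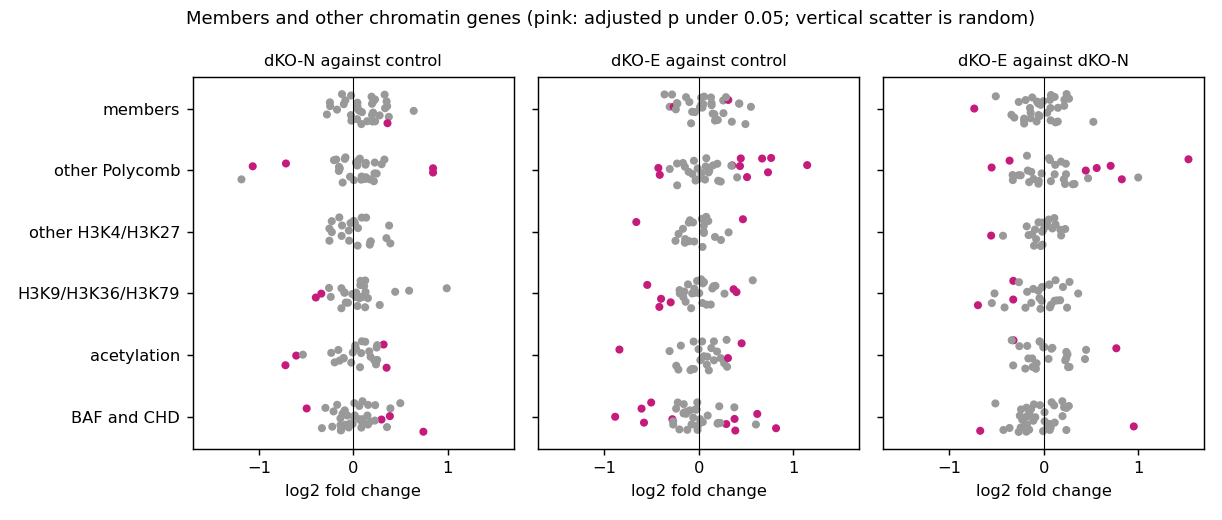
Log2 fold change (x axis) of the members and of the other chromatin genes tested, by list (rows), in the 3 comparisons, with 1 point per gene, pink for an adjusted p under 0.05 and random vertical scatter. The members lie between -0.74 and 0.64, and in dKO-E against control 10 of 33 other Polycomb genes and 10 of 39 BAF and CHD genes are pink, where 20.2% of all genes were called.

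Genes that Polycomb complexes keep silent in the cortex were read as a last group. All 39 Hox cluster genes held 0 counts in each of the 12 libraries, where 3 counts would be 0.857 to 4.15 CPM. Of these, 23 overlap another annotated gene, and a counter that does not use strand drops reads shared by overlapping genes, so a count of 0 is not proof of silence there. Of 72 developmental factors of other tissues, 30 held no count in any library, 42 held some, and only 2 were high enough to test, neither of which passed. Their summed level was 36.7 to 46.5 CPM in control, 40.1 to 49.0 in dKO-N and 39.5 to 90.1 in dKO-E. The value of 90.1 CPM was that of dKO-E 1, which also held 114 CPM of 9 meningeal markers. The next highest library in both sums was dKO-E 2, with 56.3 CPM of the factors and 43.0 CPM of the meningeal markers, and the other 10 libraries held 10.1 to 23.7 CPM of the latter. The sums did not go together in dKO-E 4. It held 52.0 CPM of the factors, above every control library, and the lowest meningeal sum, 10.1 CPM. The part of meningeal RNA in the summed factors was not tested.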

How the data were processed

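The deposited values were raw counts per gene, 1 file per library, which the authors made with STAR, UMI-tools and HTSeq on mm10, per the submitters' processing notes; the sources used here give no versions, annotation, strand or counting options. Lines that name no gene (no feature, 6.65% to 8.94%; ambiguous, 2.0% to 2.2%; not unique, 2.3% to 4.16%) stayed out. Names and positions came from GENCODE M21 by identifier (51719 matched). Overlapping and antisense genes cannot be told apart without strand.

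All 12 libraries were fitted together with edgeR 4.0.16 (TMM, filterByExpr with a minimum count of 10, glmQLFit with robust estimation, glmQLFTest; limma 3.58.1, R 4.3.3), with group as the only term (9 residual degrees of freedom), and p-values were Benjamini-Hochberg adjusted over 11076 genes, which held 99% of counts. The common biological coefficient of variation was 10.6%. CPM are TMM-scaled, with mean ± SD over 4 libraries. Alternatives included DESeq2 1.42.0 and leaving out each library. The script was tested on simulated counts. Libraries of a group differed by more than sampling noise (chi-square over its degrees of freedom 1.62 to 5.99) and each counted as 1 sample. Tables and plots used Python 3.11.15, pandas 2.3.3 and matplotlib 3.10.9.

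The members and lists were chosen with earlier results of these data known. Named genes are the members that passed in any comparison, Ezh1, Ezh2, Kdm6a, H3f3a and H3f3b, and up to 4 passing genes of each other list by size of log2 fold change; other members are given by values, and 1 gene of the other lists is not reported here. Replicate numbers were not used to pair the libraries in the main fit.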

Additional observations from a re-analysis of the deposited data

Results flagged for a closer look

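In 102 groups of 4 libraries (34 members in 3 groups), 6 held a library that stood apart from the other 3 by Dixon's criterion, which chance gives in about 1 of 20 groups. Suz12 was lowest in dKO-E 1 at 35.9 CPM, beside 52.0 to 54.3 in the other dKO-E libraries, and Kdm2b was lowest in the same library at 136 CPM, beside 162 to 167. Ring1 was highest in control 1 at 9.89 CPM, beside 4.75 to 5.33. Bmi1 was lowest in control 2 at 66.6 CPM, beside 75.9 to 76.4, and Pcgf3 was highest in control 2 at 129 CPM, beside 112 to 115. Pcgf6 was lowest in control 4 at 7.75 CPM, beside 16.2 to 17.0. None of these genes passed the test in any comparison. The difference of Ezh2 from control was not the same in the knockouts: dKO-E minus dKO-N was -0.74 on the log2 scale, by the direct test given above.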

How the results depend on the processing

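The number of members that passed moved with the settings, and the cause was not tested unless the setting itself removed libraries or counts. In dKO-N against control (1 member), it was 0 in DESeq2, 5 with library totals in place of TMM, 0 with no filter on low counts, 0 with a replicate block and 0 without control 1 and 3, and 0 to 3 when each library was left out. In dKO-E against control (2 members), it was 1 in DESeq2, 10 with library totals, 8 when only the 2 groups compared were fitted, 1 with a replicate block, 0 without control 1 and 3 and 1 without dKO-E 3 and 4, and 1 in every single leave-out. The member called in these leave-outs changed. It was Eed without control 3, Kdm6a without dKO-E 3, dKO-E 4 or both, and Auts2 or Jarid2 in the rest. Between the knockouts (1 member), the number that passed was 2 with DESeq2 size factors in edgeR and 0 without dKO-E 3 and 4, and 1 to 3 over the single leave-outs.

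Over all genes, 1255 calls in dKO-N against control became 756 without control 1 and 3 and 769 with libraries thinned to the smallest total, and 972 to 1298 over the leave-outs. The 2238 calls in dKO-E became 1215 without control 1 and 3, 1225 without dKO-E 3 and 4 and 1259 when thinned, and 1699 to 1977 over the leave-outs. The 758 calls between the knockouts became 485 in DESeq2, 488 with only the 2 groups, 500 with a replicate block, 199 without dKO-E 3 and 4 and 315 when thinned, and 300 (without dKO-N 4) to 1036 over the leave-outs. Library totals moved the median log2 fold change of all genes in dKO-E to 0.14 and the share of calls that were higher from 44.5% to 57.8% in dKO-N, from 50% to 73.9% in dKO-E and from 45.5% to 65.4% between the knockouts. Same-numbered libraries did not deviate together (correlations -0.124 to 0.0131). These correlations gave no sign of pairing by replicate number, but they cannot exclude a shared litter or batch.

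Among the named members and genes, signs turned for 3 differences near 0. Jarid2 in dKO-N was -0.0363 without dKO-N 4 (-0.0363 to 0.0986 over the leave-outs). Kdm6a between the knockouts was 0.0002 with library totals, 0.18 without dKO-E 3 and 4, 0.17 when thinned, and above 0 without dKO-N 4, dKO-E 3 or dKO-E 4 (-0.168 to 0.0196 over the leave-outs). Auts2 between the knockouts was -0.0742 without dKO-N 2 (-0.0742 to 0.119 over the leave-outs). The call of Ezh2 between the knockouts held in 15 of 16 alternatives, that of Kdm6a in dKO-N in 5 of 16, and those of Auts2 and Jarid2 in dKO-E in 9 and 5 of 17. Of 43 calls named from the other lists, 15 held in every single leave-out. Phf19 and Cbx7 were too low to test.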
